A study of Mus musculus with 8 samples.

Results

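The 4 RNAs described here are 7SK RNA (Rn7sk), the RNA of RNase MRP (Rmrp), the RNA of RNase P (Rpph1) and the telomerase RNA (Terc) in nuclei of HL1 cells. They were found in the short-read table of 65265 entries as the entries that lie on the same strand as the GENCODE M21 gene of each RNA in the mm10 mouse genome and do not overlap a same-strand protein-coding gene, together with the entries of their RefSeq accessions. Each of the 4 RNAs has 1 entry, and 3 of the 4 entries meet that rule to the letter. The entry of Rpph1 overlaps the same-strand coding gene Ccnb1ip1. It was kept because its ends are those of the RefSeq record of Rpph1 and the Ccnb1ip1 entry was at 0 in all 6 libraries of short reads. This was decided after the values had been seen. Reads from the stretch shared with Ccnb1ip1 could be counted at either entry. The 0 therefore does not show that the Rpph1 entry holds no reads of Ccnb1ip1.

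HL1 is a line of mouse atrial cardiac muscle cells. All cells were grown on gelatin in Claycomb medium with serum, norepinephrine, ascorbic acid and glutamine, and no treatment set the groups apart. Nuclei were treated with urea (0.5 M) and the detergent NP-40 (0.5%), which leaves a pellet (the chromatin fraction) and a supernatant (the nucleoplasm fraction), and ERCC standard RNAs were added to each fraction before RNA was isolated and freed of ribosomal RNA. Short stranded reads of 50 bp were made from both fractions of 3 separate cultures, and long nanopore cDNA reads, after enzymatic addition of poly(A) tails, from 2 samples of the chromatin fraction. The study compared short with long reads for assembling transcripts, with RNAs enriched in chromatin as its test case. The question put here to the 4 RNAs is in which fraction they were higher. In the labels the field for the RNA fraction reads chromatin also for the nucleoplasm libraries, so the titles, which name both fractions, were used.

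7SK RNA binds and holds back P-TEFb, the kinase that releases paused RNA polymerase II, within a particle of Larp7, Mepce and Hexim proteins. RNase MRP and RNase P are related enzymes with shared protein subunits and an RNA each, of which the former acts in ribosomal RNA processing and the latter trims the 5′ ends of transfer RNAs. These 3 RNAs are made by RNA polymerase III from promoters that lie upstream of the gene, whereas Terc, the template and scaffold of telomerase, is made by RNA polymerase II and is bound by the H/ACA proteins.

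The values are normalized counts, that is gene counts divided by a factor for each library, not scaled for length. Converted back to reads, the chromatin libraries held 100595246, 93400735 and 91657034 and the nucleoplasm libraries 102000472, 96684935 and 121773350, in the order of their replicate numbers, which all values below follow. Malat1, a long nuclear RNA, was higher in chromatin (log2 fold change 3.82 ± 0.19, SE, n = 3 per fraction) and Gapdh, a messenger RNA, was lower (-2.07 ± 0.25), so both fractions carried the RNAs their titles imply. Of 8 markers of heart muscle cells, 6 had an entry of their own and all 6 were above 0, with Ryr2 the most abundant, while Myh6 and Tnnt2 had no entry of their own. The atrial hormone gene Nppa was low, at 10.4 to 113 normalized counts. The summed heart muscle markers came to 299934, 287656 and 205391 normalized counts in chromatin and 94981, 90719 and 63955 in nucleoplasm. Among them Ryr2 (log2 fold change 2.83) and Gata4 (1.98) were higher in chromatin and Gja1 (-2.17) lower in limma, while Nkx2-5 (-1.29), Nppa (-1.53) and Actc1 (-0.038) did not pass, of which Nkx2-5 and Nppa did with the replicate block (adjusted p 0.000199 and 0.0184), and Actc1 stood at 0.70 with ERCC scaling. Without a library Nkx2-5 ran from -1.70 to -0.80 and Nppa from -2.42 to -1.05. Of 7 markers of other heart cells, 6 were above 0 with sums of 102192, 114028 and 117761 in chromatin and 217843, 212929 and 348282 in nucleoplasm, nearly all of it the fibroblast marker Col1a1. The fibroblast markers Pdgfra (699 to 2336 normalized counts) and Dcn (20.3 to 350) and the smooth muscle marker Myh11 (345 to 868) were above 0 in every library. The endothelial marker Cdh5 was at 0 in every library, and Pecam1 and the leukocyte marker Ptprc were at 0 in 4 and 3 of the 6 libraries. Col1a1 (log2 fold change -1.19), Pdgfra (-0.98) and Dcn (-2.47) were lower in chromatin in limma, calls that did not hold with ERCC scaling. Myh11 (0.038), Pecam1 (0.48) and Ptprc (0.81) did not pass. The part of these marker levels in the values of the 4 RNAs was not tested.

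Rn7sk lies on the minus strand at chr9:78175302-78175633. Its normalized counts were 715683, 684003 and 978422 in chromatin and 412021, 483179 and 504453 in nucleoplasm. All chromatin libraries were above all nucleoplasm libraries, and chromatin replicate 3 was the highest of the 6. The share of all entries whose fractions do not overlap was not computed. Here and below, such a separation is therefore not read as a trait of the genes named. It ranked 5 among all entries in each chromatin library and 20, 15 and 8 in the nucleoplasm libraries, and made up 0.699% to 1.03% of the chromatin total against 0.400% to 0.572% of the nucleoplasm total. The log2 fold change of chromatin over nucleoplasm was 0.75 ± 0.25 (SE, n = 3 per fraction), with an adjusted p of 0.0530 in limma, which missed the threshold of 0.05. With same-numbered libraries treated as pairs (the replicate block) this log2 fold change had an adjusted p of 0.0366 in limma and, with the value 0.64, of 0.0179 in edgeR. With ERCC scaling the value was 1.49 (adjusted p 0.0265 in limma) and with quantile normalization 1.47 (0.0360).

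Rmrp lies on the minus strand at chr4:43492785-43493059. Its normalized counts were 543720, 306227 and 861742 in chromatin and 278093, 205089 and 222381 in nucleoplasm. The groups did not overlap here either, but chromatin replicate 2 stood close to nucleoplasm replicate 1, and the highest chromatin library was 2.81 times the lowest. The log2 fold change was 1.17 ± 0.40 (SE, n = 3 per fraction), with an adjusted p of 0.0575 in limma, and 1.55 without chromatin replicate 2, with an adjusted p of 0.0151. With the replicate block the adjusted p was 0.0427 in limma and 0.0604 in edgeR. With ERCC scaling the value was 1.90 (adjusted p 0.0198 in limma) and with quantile normalization 1.46 (0.0219).

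Rpph1 lies on the minus strand at chr14:50807447-50807771. Its normalized counts were 58622, 62025 and 82963 in chromatin and 204037, 205811 and 186216 in nucleoplasm. Every nucleoplasm library was above every chromatin library, the opposite order to Rn7sk and Rmrp. The log2 fold change was -1.57 ± 0.17 (SE, n = 3 per fraction), with an adjusted p of 0.000617 in limma, and it was lower in chromatin in 3 of 3 same-numbered pairs. With libraries scaled by their ERCC standards the value was -0.83, with an adjusted p of 0.0552 in limma over entries and 0.0406 over entries summed by symbol.

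Terc, at chr3:96414437-96414833 on the minus strand, was at 0 in all chromatin libraries and in nucleoplasm replicates 2 and 3, and nucleoplasm replicate 1 held 1 read. A count of 0 allows up to 3 reads per library, or 3.05, 3.14 and 3.12 normalized counts in chromatin replicates 1 to 3, for counting error only. Both fractions are at or under that limit, so no fold change is given, and Terc was not detectable at this depth in either fraction beyond that read. Tert, the protein subunit that copies the template, was at 0 in all 6 libraries as well.

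Counted together, 0 of the 4 RNAs passed the test as higher in chromatin, 1 passed as lower and 3 did not pass, at an adjusted p under 0.05 in limma. An unadjusted p under 0.05 in limma was reached by 3 of the 4. The share of all entries at that level was not computed, but it includes every entry called at the adjusted threshold, whose shares follow. The 3 of the 4 are therefore not read as a trait of these RNAs. Over all 35830 entries tested, 26.9% were called higher and 20.9% lower at the adjusted threshold. The count of higher calls was 2 in DESeq2 and 0 in edgeR, and 2 with the replicate block in limma. In these fits 8633, 7735 and 10304 of the 35830 entries were called higher. In the fit over entries summed by symbol, in which 31.0% of 30803 genes were called higher and 24.9% lower, Rn7sk and Rmrp had the same log2 fold changes with adjusted p of 0.0393 and 0.0443 in limma and passed. None of the 4 was more than 4 fold higher in chromatin, a size that 15.7% of all entries reached with an adjusted p under 0.05 in limma. The median log2 fold change of all entries was 0.38, so relative to it Rn7sk stood at 0.37, Rmrp at 0.79 and Rpph1 at -1.94. Among entries with a mean of 10 or more the median was 0.049, and relative to it the values were 0.70, 1.12 and -1.61. Scaling to ERCC standards moved the median of all entries from 0.38 to 0.84, and relative to it the values were 0.65, 1.07 and -1.67. Quantile normalization moved the median of all entries from 0.38 to 0.0087 and the values to 1.47, 1.45 and -1.88 relative to it.

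**Figure D1:**
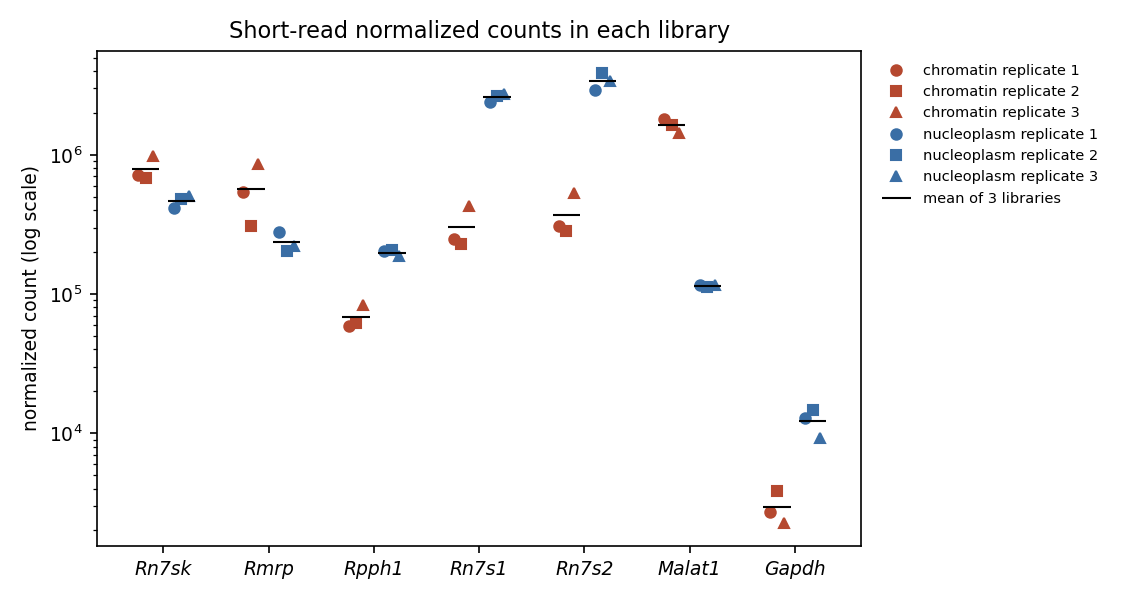
Normalized counts on a log axis for 3 of the 4 RNAs, the 7SL genes Rn7s1 and Rn7s2, Malat1 and Gapdh, with a point for each of the 6 short-read libraries and a line for the mean of each fraction. Chromatin exceeds nucleoplasm in all libraries for Rn7sk, Rmrp and Malat1, and lies below it for Rpph1, Rn7s1, Rn7s2 and Gapdh. Terc, at 0 or 1 read, cannot be drawn on this axis.

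Ratios between the RNAs within a library are not changed by a scaling that applies a single factor to each library. The ratio of Rn7sk to Rpph1 was 12.2, 11.03 and 11.8 in chromatin and 2.02, 2.35 and 2.71 in nucleoplasm, a difference of 2.32 on the log2 scale (exact permutation test, two-sided, p = 0.1, adjusted p = 0.12). This ratio varied little among chromatin replicates and ran from 2.02 to 2.71 in nucleoplasm, and the fractions did not overlap. The ratio of Rmrp to Rpph1 was 9.27, 4.94 and 10.4 in chromatin and 1.36, 0.996 and 1.19 in nucleoplasm, a difference of 2.73 (exact permutation p = 0.1, adjusted p = 0.12). The ratio of Rn7sk to Rmrp was 1.32, 2.23 and 1.14 in chromatin and 1.48, 2.36 and 2.27 in nucleoplasm, so the fractions overlapped, although it was lower in chromatin in 3 of 3 same-numbered pairs (difference -0.42, exact permutation p = 0.2, adjusted p = 0.2). Without chromatin replicate 2 the difference was -0.71, without nucleoplasm replicate 1 -0.63 and without chromatin replicate 3 -0.22, and quantile normalization, which is no single factor, gave these RNAs nearly equal log2 fold changes of 1.47 and 1.46. In all, 6 pairs were tested, and 0.1 is the smallest p that 3 libraries against 3 can give. With libraries paired by number, a test added after the values had been seen, each exact permutation p was 0.25, the smallest that 3 pairs can give. The 3 pairs with Terc only compare an RNA with 0 and are not read further.

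Against the control RNAs, Rn7sk changed less than Malat1 (difference of log2 ratios -3.07) and differed from Gapdh by 2.82, and Rmrp gave -2.65 and 3.24 (exact permutation p = 0.1, adjusted p = 0.114 for each of these 4). Rpph1 differed from Malat1 by -5.38 (exact permutation p = 0.1, adjusted p = 0.114) and from Gapdh by 0.50 (exact permutation p = 0.2, adjusted p = 0.2). The ratio of Rpph1 to Gapdh was 21.6, 16.1 and 36.8 in chromatin and 15.9, 14.1 and 20.1 in nucleoplasm, which overlap, although it was higher in chromatin in 3 of 3 same-numbered pairs. Of these 8 differences, those with Terc are again not read.

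Per kilobase of exon, the order in chromatin was Rn7sk (2394873 ± 488265 normalized counts per kb, SD, n = 3), Rmrp (2030474 ± 991915) and Rpph1 (212759 ± 41320). Rn7sk and Rmrp overlapped in that order, and in chromatin replicate 3 Rmrp, at 104% of Rn7sk per kb, was the higher of the pair. In nucleoplasm the order was the same, with 1409519 ± 146246 for Rn7sk, 836966 ± 135764 for Rmrp and 622846 ± 33973 for Rpph1, and no library of an RNA overlapped those of the next. Rpph1 thus stood at 8.50%, 9.41% and 8.80% of Rn7sk per kb in chromatin and at 51.4%, 44.2% and 38.3% in nucleoplasm.

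The coefficient of variation of Rmrp was 48.9% in chromatin and 16.2% in nucleoplasm, that of Rn7sk 20.4% and 10.4%, and that of Rpph1 19.4% and 5.45%. Without replicate 3 of each fraction the coefficients were 39.5% in chromatin and 21.4% in nucleoplasm for Rmrp, 3.20% and 11.2% for Rn7sk, and 3.99% and 0.612% for Rpph1, so the order of the fractions turned for Rn7sk, a comparison made after the values had been seen. Where the mean reached 100 or more, the median coefficient over all entries was 13.8% in chromatin (15726 entries) and 11.1% in nucleoplasm (14944 entries), and 93.5% of the entries in chromatin had a lower one than Rmrp. Chromatin replicate 3 was the highest chromatin library for all 3 RNAs and for 22 of 24 other small structured RNAs, against 35.5% of 15697 entries with a mean of 100 or more. These entries are not the same set as the 15726 above. Of the 24, Rprl1, Rprl2, Rnu6, Rnu7 and Scarna3b had lower means. The summed counts of these 24 small RNAs were 799117, 666486 and 1403075 in chromatin and 5460743, 6599512 and 6219762 in nucleoplasm. The 7SL genes Rn7s1 and Rn7s2 made up most of these sums, and without them the order of the fractions was the opposite, with 244399, 155023 and 441988 in chromatin and 116525, 74502 and 100353 in nucleoplasm. Without chromatin replicate 3 the log2 fold change was 0.59 for Rn7sk (adjusted p 0.0791 in limma), 0.81 for Rmrp (0.102) and -1.72 for Rpph1 (0.000516). What sets chromatin replicate 3 apart was not tested.

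The sequences bear on how far reads of 50 bases can be assigned. Of the 282 stretches of 50 bases in Rn7sk, 192 also occur on the transcript strand of an annotated copy of the gene, and 7 genes share at least 1. Of these 7 copies, 3 have an entry of their own name, on chromosomes 15, 2 and X. Gm24447 had 122940, 131917 and 195462 normalized counts in chromatin and 68272, 88040 and 85171 in nucleoplasm. In every library it stood at 16.6% to 20.0% of Rn7sk, with chromatin above nucleoplasm throughout. Gm26315 stood at 16.0% to 20.3% of Rn7sk and Gm26035 at 7.41% to 9.02%. The log2 fold changes of Gm24447, Gm26035 and Gm26315 were 0.88, 0.82 and 0.87, with adjusted p of 0.0194, 0.0288 and 0.0285 in limma, and these calls held in 15, 9 and 10 of 17 alternatives. Without nucleoplasm replicate 1 none of these 3 passed an adjusted p of 0.05 in limma. How reads were divided among Rn7sk and these near-identical copies is not given in the sources used here, so all 4 levels are uncertain to that extent.

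Rpph1 shares 184 of 270 stretches of 50 bases with the transcript of Ccnb1ip1 that overlaps it on the same strand, and Rmrp shares 75 of 222 with a transcript of Ccdc107 on the opposite strand, which stranded short reads can tell apart. How reads were divided between Rpph1 and Ccnb1ip1 is not given in the sources used here, so the level of Rpph1 is uncertain to that extent. Terc shares none of its 374 with another annotated gene, and no pair of the 4 RNAs has a common stretch longer than 9 bases. For all 4 RNAs only GENCODE M21 transcripts were searched for shared stretches. Unannotated copies in the genome, to which the reads were aligned, are not counted, so more stretches may be shared. The stretches that matter for read assignment are printed for Rmrp and Rpph1, and the start of Terc with its template. All come from the GENCODE M21 transcripts in mm10, on the minus strand: the whole Rmrp transcript of 271 bases (chr4:43492788-43493058), bases 1 to 300 of Rpph1 (chr14:50807468-50807767) and bases 1 to 100 of Terc (chr3:96414760-96414859). GENCODE M21 also lists an Rmrp transcript of 281 bases, which is not printed. The Terc entry, like its RefSeq record, ends at chr3:96414833, so the first bases printed for Terc lie outside that entry. Capitals mark bases covered by 50-base stretches shared with the reverse complement of Ccdc107 (Rmrp) or with Ccnb1ip1 (Rpph1), and in Terc the longest match to a repeat of CCCTAA.
Rmrp: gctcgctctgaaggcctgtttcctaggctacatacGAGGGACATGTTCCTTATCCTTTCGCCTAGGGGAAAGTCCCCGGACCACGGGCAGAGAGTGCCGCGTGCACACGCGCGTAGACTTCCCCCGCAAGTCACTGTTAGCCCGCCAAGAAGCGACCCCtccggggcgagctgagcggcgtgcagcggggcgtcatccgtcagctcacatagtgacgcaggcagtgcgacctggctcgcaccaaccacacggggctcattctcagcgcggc
Rpph1: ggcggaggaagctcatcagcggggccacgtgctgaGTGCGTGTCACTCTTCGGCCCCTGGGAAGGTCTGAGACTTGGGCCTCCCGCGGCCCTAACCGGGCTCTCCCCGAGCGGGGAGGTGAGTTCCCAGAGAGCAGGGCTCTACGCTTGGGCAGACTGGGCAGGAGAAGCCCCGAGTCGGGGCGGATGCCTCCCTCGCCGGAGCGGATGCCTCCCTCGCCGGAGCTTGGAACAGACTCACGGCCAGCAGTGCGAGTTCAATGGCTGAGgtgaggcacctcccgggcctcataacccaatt
Terc: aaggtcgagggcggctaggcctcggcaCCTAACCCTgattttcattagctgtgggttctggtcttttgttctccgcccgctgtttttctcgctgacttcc

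The Rmrp stretch shared with Ccdc107 covers bases 36 to 159, and the Rpph1 stretch shared with Ccnb1ip1 covers bases 36 to 268. The match of Terc to the CCCTAA repeat is 9 bases long and starts at base 28, and 0.707% of 141767 transcripts hold the same 9 bases. The promoter table from RefSeq had an entry for 0 of the 4 genes.

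**Figure D2:**
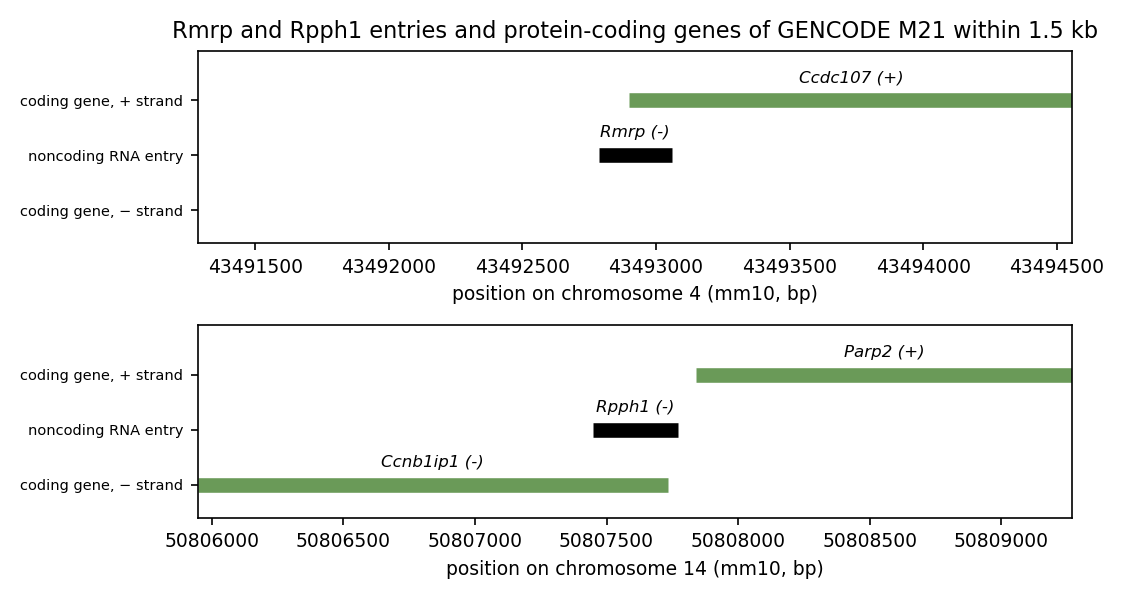
Positions on mm10 of the Rmrp and Rpph1 entries (black) and of GENCODE M21 protein-coding genes (green) within 1.5 kb, by strand. Ccdc107 overlaps Rmrp on the opposite strand, and Rpph1 overlaps Ccnb1ip1 on the same strand. The GENCODE M21 gene of Rpph1 lies 73 bp from Parp2.

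No neighbouring coding gene passed the test in the direction in which its RNA differed. Ccdc107, which overlaps Rmrp on the opposite strand, had 348, 416 and 269 normalized counts in chromatin and 912, 971 and 1085 in nucleoplasm and was lower in chromatin (log2 fold change -1.54, adjusted p 0.000481 in limma), while Rmrp was higher in every chromatin library. Parp2, whose gene starts 73 bp from the GENCODE M21 gene of Rpph1 and runs the other way, had 769, 739 and 956 in chromatin and 745, 784 and 831 in nucleoplasm, and these groups overlapped (0.055, adjusted p 0.732 in limma), although with ERCC scaling it was called higher (0.79, adjusted p 0.0328). Ttc5, on the other side of Rpph1, was higher in chromatin (0.36, adjusted p 0.00923 in limma). Beside Rn7sk, Gsta4 was lower (-2.39, adjusted p 3.76e-05 in limma), and Ick was lower at -0.36 (adjusted p 0.0137 in limma) but stood at 0.37 with ERCC scaling (adjusted p 0.199 in limma). Sit1 beside Rmrp and Fcgr1 and BC107364 beside Terc held at most 10.1 normalized counts in any library, and Arhgef39 had no entry of its own.

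The genes with profiles most like each RNA over the 6 libraries, by the smallest root mean square difference of centred log2 values among 12265 genes, were Ttll3 (0.057), Pcid2 (0.061) and Psmb2 (0.070) for Rn7sk. For Rmrp they were D230017M19Rik (0.14), Gm23971 (0.14) and Rdm1 (0.15), and for Rpph1 Map1lc3b (0.049), Lrrn4cl (0.051) and Higd1a (0.065). The U2 RNA gene Rnu2-10 had 61285, 38106 and 92096 normalized counts in chromatin and 36047, 18997 and 26349 in nucleoplasm, and those of Rdm1 were 62074, 38926 and 92873 in chromatin and 37361, 20288 and 27248 in nucleoplasm, nearly the same. For Terc the nearest were AI429214 (0.22), Wt1 (0.23) and Lrrc14b (0.24), and Terc held a single read.

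Other small structured RNAs moved both ways. Of 43 genes on this list, 24 had an entry and 19 had none, and 9 of the 24 were higher in chromatin and 3 lower, with a median log2 fold change of 0.66 beside 0.34 over all genes of the by-symbol fit, in which 31.0% were called higher and 24.9% lower. With the replicate block in limma 12 were higher and 4 lower, beside 10613 and 8874 of all 30803 genes. With ERCC scaling 15 were higher and 2 lower, beside 12493 and 3243 of all genes. The median less that of all genes was 0.32, but 0.12 without chromatin replicate 3, 0.50 without chromatin replicate 2, 0.20 without nucleoplasm replicate 2 and 0.65 among genes with a mean count of 10 or more. The higher ones were the U3 genes Rnu3b2 (2.95) and Rnu3b4 (2.94), Snord118, the U8 RNA (2.65), Snord17 (4.51) and Snord13 (2.95), which act in the nucleolus, Scarna2 (2.76) and Scarna6 (2.41) of Cajal bodies, Rnu2-10 (1.19) of the spliceosome, and Rnu7 (1.83) of histone messenger RNA processing, which had at most 16.7 normalized counts in any library and stood at 0.52 after quantile normalization (adjusted p 0.307), and did not pass in DESeq2 either. Rnu3b2 and Rnu3b4 had almost equal counts, for example 49273 and 49306 in chromatin replicate 1, as copies that share reads can have. The lower ones were the 7SL genes of the signal recognition particle, Rn7s1 (-3.15) and Rn7s2 (-3.24), and Rny3 (-0.92), a Y RNA whose fractions overlapped, all by limma with an adjusted p under 0.05. The call of Rny3 held in 9 of 17 alternatives, with an adjusted p of 0.0619 with the replicate block in limma and, at -0.18, of 0.669 with ERCC scaling, and that of Rnu2-10 held in 11 of 17, with 0.152 after quantile normalization (0.73).

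Rn7s1 had 249064, 228524 and 432027 normalized counts in chromatin and 2394951, 2664835 and 2717703 in nucleoplasm, and Rn7s2 305654, 282939 and 529060 against 2949268, 3860176 and 3401706. Both were lower in every chromatin library, by more than Rpph1, and near-identical copies may share their reads. Among other polymerase III products, Rny1 (-1.15), the vault RNA Vaultrc5 (-1.11) and Bc1 (-0.64) did not pass, and Bc1 stood at 0.092 with ERCC scaling. With the replicate block in limma the adjusted p was 0.0410 for Rny1 and 0.0438 for Vaultrc5. The U5 gene Rnu5g (1.39) missed the threshold narrowly, with fractions that did not overlap, and passed in 9 of 17 alternatives, with an adjusted p of 0.00810 with the replicate block in limma. The U1 genes Rnu1b1 (0.47) and Rnu1b2 (0.47), Rnu11 (0.68), Rnu12 (0.57) and Scarna3b (0.64) did not pass, although with that block Rnu1b2 (adjusted p 0.0455 in limma) and Scarna3b (0.0444) did. Without a library Rnu5g ran from 0.81 to 1.72, Rnu11 from 0.13 to 1.07 and Rnu12 from 0.22 to 0.92. Rnu1b1 then ran from 0.16 to 0.69, Rnu1b2 from 0.18 to 0.67 and Scarna3b from 0.42 to 0.86. Rny1 ran from -1.67 to -0.79, Vaultrc5 from -1.62 to -0.73 and Bc1 from -0.99 to -0.32. Rnu6 and the Rpph1-like genes Rprl1 and Rprl2 held at most 4.79 normalized counts in any library.

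**Figure D3:**
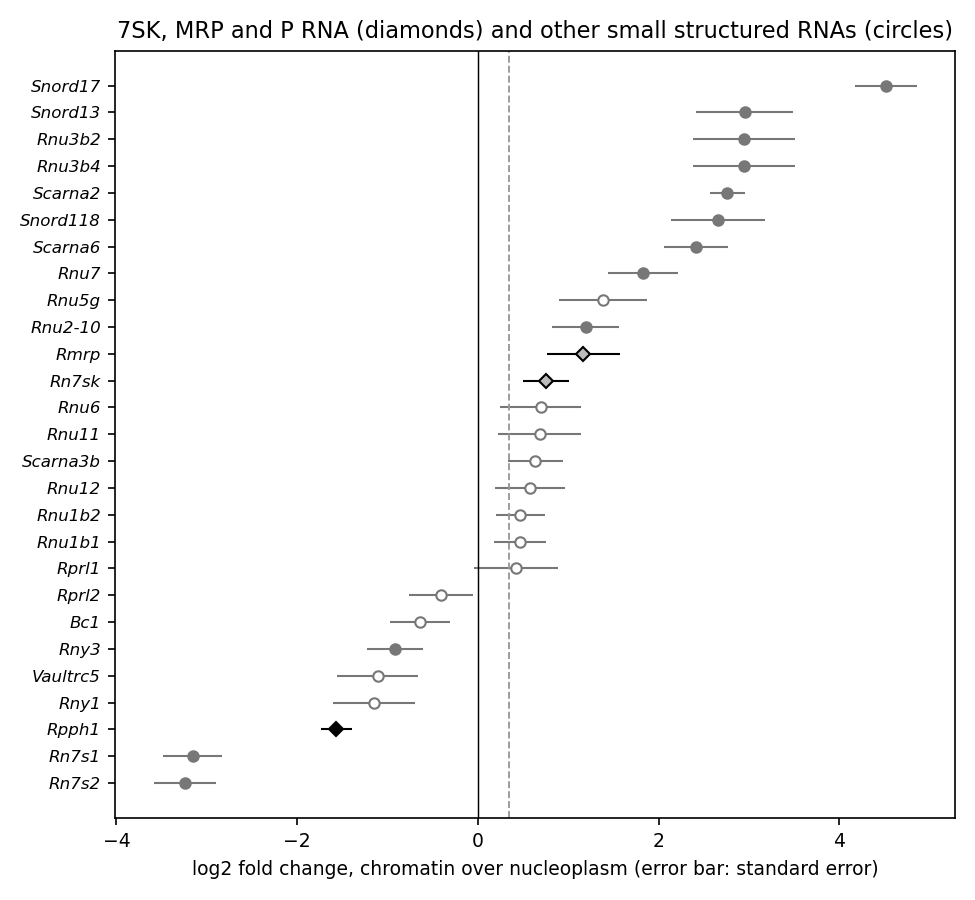
Log2 fold changes of chromatin over nucleoplasm with standard errors for Rn7sk, Rmrp and Rpph1 (diamonds) and 24 other small structured RNAs (circles), in the order of their values; the dashed line is the median of all genes, 0.34. Filled symbols had an adjusted p under 0.05 in limma, grey diamonds only in the fit over entries summed by symbol, and Rpph1 lies between Rny1 and Rn7s1. With ERCC scaling Bc1 and Rprl2, and with quantile normalization Rprl1 and Rnu6, change sign.

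Messenger RNAs of the proteins that work with these RNAs were compared in the fit over entries summed by symbol, where the median of all genes was 0.34 and 31.0% were called higher and 24.9% lower. Of all 30803 genes, 12493 were called higher and 3243 lower with ERCC scaling, and 10613 and 8874 with the replicate block in limma. The counts of every protein list below under these settings are to be read beside those of all genes. Of the 7SK particle and P-TEFb, 7 of 7 passed, 5 lower and 2 higher, with a median of -1.001, and with ERCC scaling 1 was lower and 2 higher. Lower were Hexim1, the kinase inhibitor (-1.39), Larp7, which binds the 3′ end of 7SK (-1.24), Mepce, which caps it (-1.001), and the kinase Cdk9 (-0.53), which stood at 0.21 with ERCC scaling and passed in 8 of 17 alternatives, among those that leave out a library only without chromatin replicate 3 (-0.72, and -0.42 without chromatin replicate 1). Higher were the cyclins Ccnt2 (2.76) and Ccnt1 (0.91). Larp7 had 2083, 2157 and 1945 normalized counts in chromatin and 5129, 4584 and 4950 in nucleoplasm, and Ccnt2 had 23571, 20883 and 21890 against 3354, 3095 and 3328. Neither overlapped between fractions.

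Of the proteins of RNase P and RNase MRP, 9 of 11 had an entry of their own, 6 were lower and 0 higher in limma, with 3 not called and a median of -1.24, and with ERCC scaling 3 were lower and 1 higher. Pop5 (-2.31), Rpp25l (-1.63), Pop4 (-1.36) and Rpp30 (-1.24) were the most abundant of those that fell. Pop5 had 399, 473 and 365 normalized counts in chromatin and 1987, 2155 and 1976 in nucleoplasm, with no overlap. Of the telomerase and H/ACA proteins, 11 of 12 were tested, 6 lower and 1 higher with a median of -0.56, and with ERCC scaling 2 were lower and 2 higher. Lower were the pseudouridine synthase Dkc1 (-1.14), the helicase Ruvbl2 (-1.68), Nhp2 of the H/ACA core (-1.62) and Wrap53, which brings telomerase RNA to Cajal bodies (-0.84), and higher was Tep1 (0.68), a telomerase-associated and vault protein.

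Of the subunits of RNA polymerase III itself 12 of 13 had an entry, 4 were lower and 1 higher, with a median of -0.077, while 4 were higher and 5 lower with the replicate block in limma, and 4 higher and 3 lower with ERCC scaling. Polr3gl, an alternative subunit, was higher (1.98), and Polr1d (-1.84), Polr1c (-1.82), Crcp (-1.62) and Polr3c (-0.99) were lower, of which Polr1c and Polr1d also belong to polymerase I. Of 20 initiation factors with La and Maf1, 17 had an entry, 8 were lower and 5 higher, with a median of -0.096, and with ERCC scaling 4 were lower and 8 higher. Higher were Snapc3 of the complex that binds the promoters of Rn7sk, Rmrp and Rpph1 (2.75), the transcription factor Pou2f1 (1.89), Brf1 (1.55) and Bdp1 (0.78). Lower were Gtf3a (-1.92), the polymerase III repressor Maf1 (-1.59), Ssb, the La protein that binds the ends of new transcripts (-0.77), and Gtf3c4 (-0.35), which stood at 0.38 with ERCC scaling. Relative to all genes, the medians of these 5 protein lists were -1.34, -1.58, -0.90, -0.42 and -0.44, with ERCC scaling -1.09, -1.33, -0.64, -0.17 and -0.18, and among genes with a mean count of 10 or more -1.01, -1.30, -0.56, -0.082 and -0.10. After quantile normalization these medians relative to all genes were -0.76, -1.06, -0.26, 0.14 and -0.24, in the same order.

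In the long-read libraries of the chromatin fraction, which give transcripts out of 1000000 (TPM) and had no comparison fraction, Rn7sk had 3511 and 2812 TPM in replicates 1 and 2. It ranked 1 and 10 among all models of the libraries. Rmrp had 238 and 41.4 TPM and Rpph1 127 and 64.4 TPM, and Terc was listed at 0 in both. Replicate 1 was higher than replicate 2 for all 3 RNAs, by 1.25 times for Rn7sk, 5.75 times for Rmrp and 1.97 times for Rpph1, so the order of Rmrp and Rpph1 changed between the libraries. With 2 libraries of a single fraction no test was made. The long cDNA reads carry no strand of their own. The paper describes a step that infers the strand from primer sequences, but whether these values used it is not clear. Reads of an RNA and of a gene on the opposite strand, such as Rmrp and Ccdc107, may therefore not be kept apart by strand as in the short reads. The protocol text names another cell line, HAP1, for the long-read libraries, while titles and labels name HL1.

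The long and short reads differed in how far Rn7sk stood above the others. The paper names different kits for removing ribosomal RNA, Ribo-zero Gold for the short-read and RiboMinus for the long-read HL1 samples. The part of the kits in this difference was not tested. Rmrp was at 6.77% and 1.47% of Rn7sk in TPM, against 89.5%, 52.7% and 104% per kb in the 3 short-read chromatin libraries, and Rpph1 was at 3.61% and 2.29% against 8.50%, 9.41% and 8.80%. Malat1, at 1862 and 1932 TPM, lay below Rn7sk in both long-read libraries. A longer same-strand model that runs over Rmrp and the coding genes Sit1, Arhgef39, Tpm2 and Tln1, at 30.1 and 28.1 TPM, was left out of the values of Rmrp. Of the 24 other small RNAs, 21 were above 0 in a long-read library and 17 of these were higher in replicate 1, among them Rnu3b2 (1541 and 155 TPM) and Rn7s1 (1591 and 637 TPM), whereas Bc1 had 231 and 298 TPM. The share of all models higher in replicate 1 was not computed, so this count is not read as a trait of small RNAs. The depth of the long-read libraries cannot be read from TPM, although the paper states how many reads each HL1 replicate gave.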

How the data were processed

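RNA of 3 chromatin and 3 nucleoplasm fractions of HL1 cells was measured by short reads, and of 2 chromatin fractions by long reads. The authors aligned short reads to mm10 with HISAT2 2.1.0, assembled and re-estimated transcripts with StringTie, and deposited gene counts divided by DESeq2 size factors, a signal in normalized counts. The authors deposited long-read values as TPM from StringTie after alignment with minimap2. Recovered reads were whole for 100% of values in each library (tolerance 0.01), and their totals scale with the read length used in counting. Precision is limited by 3 libraries per fraction.

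Fractions were compared with limma 3.58.1 (R 4.3.3, trend, Benjamini-Hochberg) on log2(normalized count + 1) over 35830 entries above 0 in at least 1 library. A fold change on this scale understates that of low genes. Lists used the same fit over entries summed by symbol, after 36577 of 44536 accession entries and part of the assembled loci were named from RefSeq and GENCODE M21. Alternatives used edgeR 4.0.16 and DESeq2 1.42.0 on recovered reads, other pseudocounts, filters and scalings, each library left out, and the replicate block. The functions were tested on simulated data. Pairs of RNAs were compared by exact permutation (scipy 1.17.1, Python 3.11.15, numpy 2.4.6, pandas 2.3.3). From each protein list, up to 4 called genes per direction with the highest mean are named, besides all small RNAs, neighbouring coding genes and the 3 genes with the nearest profile. Members, lists and rules were chosen with earlier results of these data known.

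Replicate numbers in the titles, which both fractions share, were checked as pairs. Over 23911 entries with a mean of at least 10, deviations of same-numbered libraries correlated at 0.119, 0.102 and 0.249, and those of other pairs at -0.158 to 0.0631, so the numbers were taken as pairs by the rule that each exceed 0.1. Over all 35830 entries the values were 0.0975, 0.0883 and 0.222, so the pairing is weak and rests on the entries used. A further sequence is not reported here.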

Additional observations from a re-analysis of the deposited data

How the results depend on the processing

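The log2 fold changes of Rn7sk, Rmrp and Rpph1 kept their direction in all 20 alternatives run for each. Rn7sk passed an adjusted p of 0.05 in 9 of them: 0.75 with a pseudocount of 0.1, with only entries of a mean of at least 10, without the trend, with the replicate block in limma and in the fit by symbol, 0.76 in DESeq2, 1.49 with ERCC scaling, 1.47 with quantile normalization and 0.64 with the replicate block in edgeR. Its adjusted p ran from 6.18e-05 (DESeq2) to 0.161 (limma with a pseudocount of 10), and its value without a library from 0.59 to 0.85. Rmrp passed in 7: 1.17 with the mean filter, the replicate block in limma and the fit by symbol, 1.28 in DESeq2, 1.90 with ERCC scaling, 1.46 with quantile normalization and 1.55 without chromatin replicate 2. Its values without a library ran from 0.81 to 1.55, and its adjusted p over all alternatives from 0.000821 (DESeq2) to 0.151 (limma without chromatin replicate 1). Rpph1 missed the threshold in 1, ERCC scaling (-0.83, adjusted p 0.0552 in limma, but 0.0406 over entries summed by symbol), and over entries its adjusted p was otherwise 0.00510 or less. The replicate block changed no other call of the 4 RNAs.

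RNAs called higher therefore numbered 1 with the pseudocount of 0.1, without the trend and with the replicate block in edgeR, 2 with the mean filter, DESeq2, ERCC scaling, quantile normalization, the replicate block in limma and the fit by symbol, and 0 to 1 without a library. RNAs called lower numbered 0 with ERCC scaling and also if Rpph1 is left without an entry by the letter of the rule. Entries called lower fell to 3108 with ERCC scaling from 7477, and 80.0% of calls were then higher, against 56.3%, while with quantile normalization 47.0% and with the replicate block in edgeR 47.6% were, so most calls were then lower. The median of the polymerase III subunits relative to all genes turned to 0.14 with quantile normalization, initiation factors called lower fell to 5 without chromatin replicate 1, and small RNAs called lower ran from 2 to 6 without a library, the latter without chromatin replicate 3. The fit by symbol, the rule by the letter and all alternatives of lists and single genes were chosen after seeing the data. The causes of these changes were not tested.

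Among the genes named above, signs turned with ERCC scaling for Cdk9 (0.21), Gtf3c4 (0.38), Bc1 (0.092), Rprl2 (0.14), Ick (0.37), AI429214 (0.36), Wt1 (0.50), Actc1 (0.70, and -0.29 to 0.28 without a library) and Lrrc14b (0.61, and -0.35 to 0.076 without a library), and with quantile normalization for Rprl1 (-0.11) and Rnu6 (-0.93). Of list members not named above, Parn (0.18) and Brf2 (0.25), both called lower, also turned with ERCC scaling. So did Rpp38, Shq1, Ruvbl1, Polr3e, Polr3f, Polr3g, Snapc1 and Gtf3c3, which were not called. Parp2 turned to -0.017 in edgeR (-0.024 with the replicate block) and -0.025 with TMM factors, was called higher with ERCC scaling (0.79, adjusted p 0.0328), and ran from -0.059 to 0.13 without a library. For pairs of RNAs the replicate block gave the same differences (exact permutation p 0.25, tested after seeing the data), and no direction changed among the 8 alternatives run, which do not include quantile normalization. Including entries over coding genes, or asking for 50% overlap, changed no value. RefSeq accession entries alone gave a value only for Terc, since the other 3 RNAs have none. For Terc, with 1 read, no difference was detectable at this depth.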
